A study of Saccharomyces cerevisiae with 27 samples.

Results

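The comparison described here sets the group titled OLE1met250 against the group titled OLE1met0, with 3 libraries each of the 27 libraries in the series. Both groups are the same Saccharomyces cerevisiae strain, an S288C derivative in which the native promoter of OLE1 was exchanged by integration for the MET3 promoter, which methionine turns off. OLE1met0 is the reference, described by the labels as high in lipid unsaturation, and OLE1met250 is described as low. Cells of both groups were grown in CSM medium, and poly-A RNA was sequenced as paired reads. The members are all gene rows of the authors' deposited table with a log2 fold change and a q value for this pair of groups, 6065 genes with a q under 1 of the 6709 genes listed. Methionine supply and the intended shut-off of OLE1 change together in this design and cannot be told apart.

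OLE1 encodes the only fatty acid desaturase of budding yeast, an endoplasmic reticulum enzyme that puts a double bond into palmitoyl-CoA and stearoyl-CoA. Its transcription is driven by Spt23 and Mga2, sister proteins anchored in the same membrane, whose transmembrane helices respond to lipid packing and whose p90 fragments are released by ubiquitination and Cdc48. Methionine acts on a different circuit: it lowers the activity of Met4, the activator of sulphate assimilation genes, MET3 among them.

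The labels disagree for OLE1met250. Its title carries the number 250 and the column header names it as the strain with methionine, whereas its treatment entry gives 0 uM methionine together with the word repressed. OLE1 was not lower in the authors' deposited table, with a log2 fold change of -0.03 at q = 0.925, so the targeted gene did not check the labels. The groups are therefore named by their titles. MET3 itself, whose native copy keeps the promoter placed before OLE1, was at 0.36 (q = 0.274). Its neighbours in the pathway were lower, as given below. Both genes flanking OLE1, ERV14 at -0.07 (q = 0.834) and SDS23 at 0.47 (q = 0.0799), also missed the threshold.

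All values below are log2 fold changes, OLE1met250 over OLE1met0, from the authors' deposited table, and rises and falls are differences with an authors' q under 0.05. The table has no value per library, no error and no count, so the depth is unknown, the spread between the 3 libraries enters only through q, and no plot by library can be drawn. By this rule 1893 genes were called, 31.2% of those tested: 1011 rose (16.7%) and 882 fell (14.5%). The median log2 was 1.02 among the genes that rose and -0.97 among those that fell. Of the rises, 117 were at least 2 on the log2 scale and 39 at least 3. Of the falls, 77 were at least 2 and 14 at least 3. The median of all tested genes was -0.01. Within lists of genes that work together, 720 of 1636 tested members were called, and the other 1173 called genes were in no list.

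Genes that supply and extend fatty acids rose together, while the desaturase between them did not pass. All 5 genes of cytosolic fatty acid synthesis rose, with a median of 3.47. ACC1, the acetyl-CoA carboxylase that commits carbon to fatty acids, was 15.6-fold higher, and FAS1 and FAS2, the subunits of fatty acid synthase, were at 3.47 and 3.61. ACB1, which carries the acyl-CoA product, rose by 3.19, and BPL1, the ligase that puts biotin on Acc1, by 0.63. The mitochondrial fatty acid synthase, a separate bacterial-type system, did not rise: none of its 8 genes was called higher, and MCT1 and PPT2 fell, with values of -1.68 and -1.14. Of 7 genes for activation and import of fatty acids, 3 rose. FAA4, an acyl-CoA synthetase for imported fatty acids, was at 4.20, PXA1 of the peroxisomal importer at 1.44 and FAA3 at 1.10, whereas FAA1, the other main synthetase, was at 0.02 (q = 0.956). Elongation genes rose in 4 of 6 cases, the elongases ELO3 by 1.79, ELO1 by 1.35 and ELO2 by 1.34, and so did PHS1, the dehydratase of the same cycle, at 0.97. TSC13 and IFA38, which carry out the other steps of that cycle, were at -0.48 and 0.05 and did not pass.

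**Figure D1:**
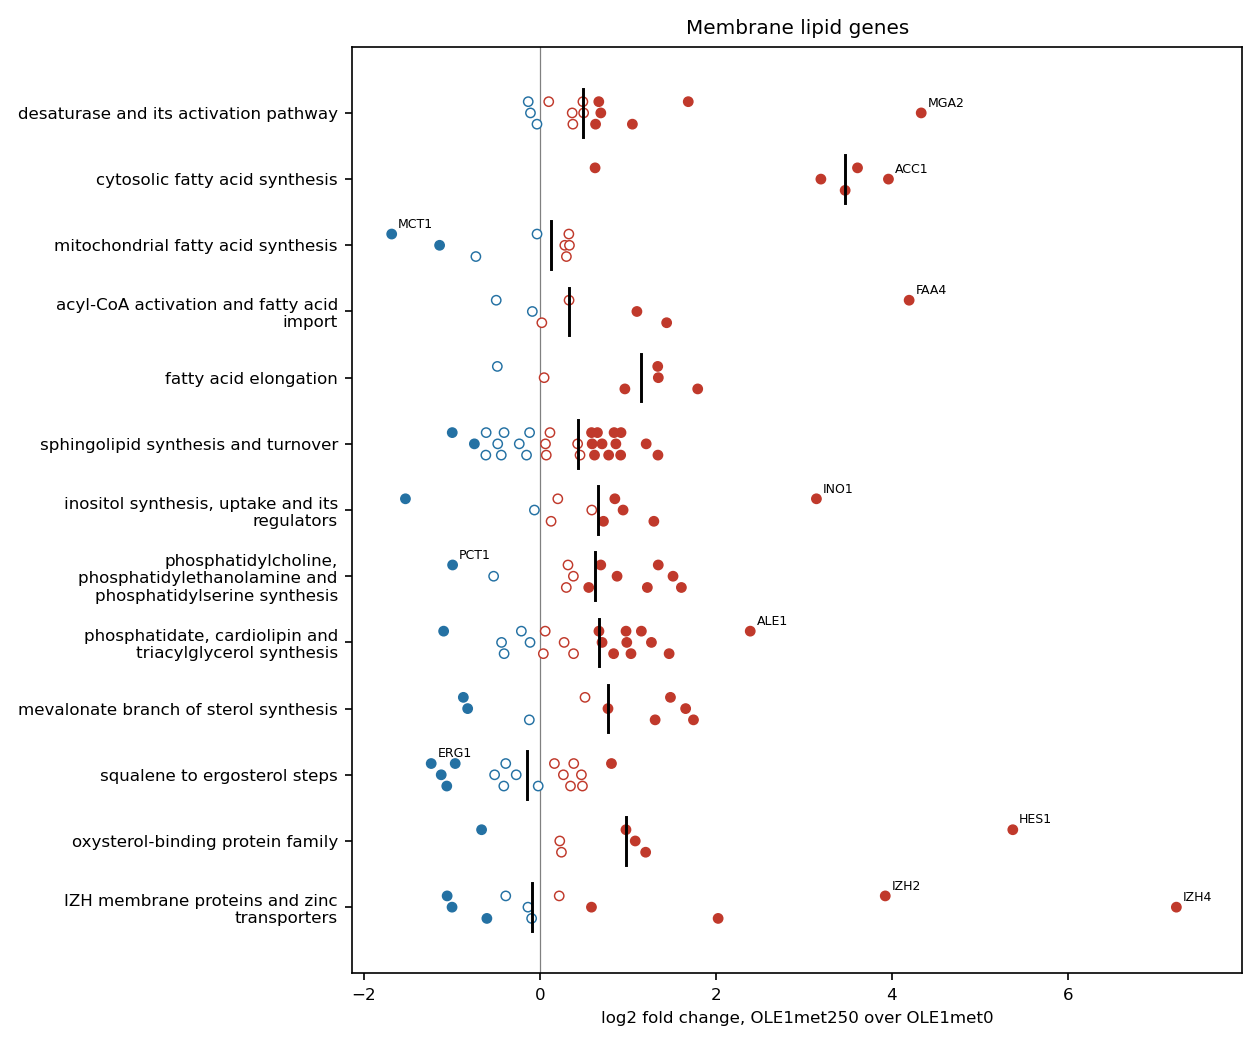
Each circle is a tested gene of a lipid list, placed by its log2 fold change in OLE1met250 over OLE1met0, filled at a q under 0.05 and open otherwise, red above 0 and blue below; black bars are list medians. Cytosolic fatty acid synthesis lies farthest right, with a median of 3.47, and the squalene to ergosterol steps have a median of -0.14.

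Of the machinery that activates OLE1, MGA2 stood far from its sister gene. MGA2 was 20.2-fold higher at a log2 of 4.33 (q = 0.000304), and SPT23 was at 0.38 (q = 0.175). The genes next to MGA2 did not share its rise: LYS1, of lysine synthesis, fell, with a value of -1.91, and DAL3 was at -0.90 (q = 0.0588). Among the 14 genes listed here, which include endoplasmic reticulum protein degradation beside the activation of OLE1, 6 rose and 0 fell. Apart from MGA2 they were parts of endoplasmic reticulum protein degradation: the ubiquitin ligases HRD1 at 1.69 and SSM4 at 0.67, the Hrd1 partner HRD3 at 0.69, the conjugating enzyme UBC7 at 0.63 and UBX2, which brings Cdc48 to the membrane, at 1.05. RSP5, the ligase known to act on Mga2 and Spt23, was at 0.10, and CDC48, UFD1 and NPL4, the complex that pulls the fragments free, were between -0.13 and 0.50; none of these 4 was called.

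The inositol and phospholipid genes had more rises than falls. Of 10 inositol genes, 5 rose and 1 fell. INO1, the inositol-3-phosphate synthase, was 8.84-fold higher, and both subunits of its activator rose, INO2 by 1.30 and INO4 by 0.85. The inositol transporters ITR1 and ITR2 rose by 0.95 and 0.72, INM1, an inositol monophosphatase, fell, with a value of -1.53, and the repressor OPI1 was at 0.20 (q = 0.509). In phosphatidylcholine, phosphatidylethanolamine and phosphatidylserine synthesis, 7 of 12 genes rose and 1 fell. CHO2 and OPI3, the methyltransferases that turn phosphatidylethanolamine into phosphatidylcholine with S-adenosylmethionine, were at 1.61 and 0.88. The choline transporter HNM1 rose by 1.22 and the choline kinase CKI1 by 1.35, while PCT1, the CTP-using enzyme that follows it, fell, with a value of -0.99.

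The promoters of 2 of these genes are printed as examples: both rose and hold the letters CATGTGA, the core of the element bound by Ino2 and Ino4, 2 times. ITR1, which is not printed, holds them 3 times. Each window ends 100 bases before the start codon and is 300 bases long, read 5' to 3' on the gene's strand from the RefSeq R64 genome, with CATGTGA in capitals on either strand (TCACATG where it lies on the other one). INO1 is on the minus strand at chrX:136034-136333 and CHO2 on the plus strand at chrVII:802040-802339.
INO1: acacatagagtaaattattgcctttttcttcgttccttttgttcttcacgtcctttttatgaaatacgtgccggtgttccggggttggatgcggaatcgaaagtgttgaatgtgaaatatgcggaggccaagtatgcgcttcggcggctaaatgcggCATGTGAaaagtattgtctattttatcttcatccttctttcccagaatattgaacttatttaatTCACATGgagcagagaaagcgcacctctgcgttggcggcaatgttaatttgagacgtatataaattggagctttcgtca
CHO2: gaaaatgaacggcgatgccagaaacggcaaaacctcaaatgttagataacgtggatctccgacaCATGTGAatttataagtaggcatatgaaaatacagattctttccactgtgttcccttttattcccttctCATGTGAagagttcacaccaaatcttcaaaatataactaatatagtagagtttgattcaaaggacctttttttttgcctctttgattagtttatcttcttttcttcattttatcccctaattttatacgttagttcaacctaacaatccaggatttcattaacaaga

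Such a match occurred in 2.89% of the promoters of 5566 tested genes, in 3.73% of those that rose and in 2.77% of those that fell. It occurred in 4 of 10 inositol genes, all 4 of which rose, and in 7 of the 12 genes of phosphatidylcholine and related lipids, of which 4 rose and 0 fell. Without the letters, 1 of the other 6 inositol genes rose, and so did 3 of the other 5 genes of phosphatidylcholine and related lipids. A match is a description of letters in this window and not a measured binding site.

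Genes that make phosphatidate and move it to membrane or storage lipids also rose more often than they fell, 10 to 1 of 19. ALE1, an acyltransferase that rebuilds lysophospholipids, led at 2.39, with SLC1 at 1.15 and SCT1 at 0.99 at the acylation steps. PAH1, the phosphatidate phosphatase, and NEM1, the phosphatase that activates it, rose by 1.04 and 1.47, and DGK1, the kinase that runs the reaction backwards, fell, with a value of -1.09. The phospholipases B rose, PLB2 by 3.27, PLB1 by 1.34 and PLB3 by 0.78. The triacylglycerol lipase TGL3 and the steryl ester hydrolase YEH1 fell, with values of -0.81 and -1.10. Among 27 sphingolipid genes, 12 rose and 2 fell: LCB1 and LCB2, of serine palmitoyltransferase, were at 0.92 and 0.59, their inhibitor ORM2 at 0.92 and the kinase YPK1, which acts on Orm proteins, at 1.21. The ceramide synthase genes went opposite ways, LAC1 at 0.71 and LAG1 at -0.995. Of 11 flippase genes and partners, DNF2 (0.86) and its activating kinase FPK1 (0.58) rose and 0 fell, a share close to the 16.7% of all genes.

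Sterol synthesis genes were called in both directions. In the mevalonate branch 5 of 9 genes rose, ERG10 by 1.66, ERG13 by 1.48, HMG2 by 1.31, ERG12 by 0.77 and MVD1 by 1.75, while ERG8 and IDI1 fell, with values of -0.87 and -0.82. HMG1, the second HMG-CoA reductase, was at -0.12 (q = 0.716). From squalene on, 4 of 16 genes fell, 1 rose and 11 were not called. The called share, 31.25%, was that of all tested genes (31.2%). ERG1, the squalene epoxidase, was at -1.23, ERG7 at -1.12, ERG5 at -1.06 and ERG4 at -0.96. NCP1, the reductase partner of the P450 steps, was at 0.81. The genes that store, import or regulate sterols rose in 5 of 11 and fell in 0. ARE2 and ARE1, the sterol acyltransferases, were at 1.99 and 1.08. Transcripts of the regulators UPC2 and HAP1 were at 1.73 and 1.54, which does not show that the strain makes working proteins. The importer PDR11 was at 0.90, with AUS1, its partner, at -0.38 (q = 0.216). Beyond synthesis, HES1, a sterol-binding protein, was 41.5-fold higher, and OSH6, SWH1 and OSH3 of the same family rose by 1.20, 1.08 and 0.98, so that 4 of 7 members rose and 1, OSH7 at -0.66, fell. Of the membrane proteins of the IZH family, IZH4 (150.5-fold higher, q = 0.0388), IZH2 (3.93) and IZH1 (2.03) rose and IZH3 fell, with a value of -0.998. The zinc importers ZRT1 and ZRT2 fell, with values of -1.05 and -0.60.

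Mating genes made up 3 of the 4 largest falls. Yeast of a and alpha type each make a pheromone and a receptor for the other one, and the signal runs through a G protein and a kinase cascade to the transcription factor Ste12. The labels do not state the mating type, so whether the a-specific or alpha-specific genes belong to the other type is unknown. Genes of the other type may rest on few reads, and no count is given to show this. STE2, the receptor for alpha-factor, was 18.2-fold lower at a log2 of -4.19. Of 7 a-specific genes 4 fell and 0 rose: beside STE2 these were ASG7 at -2.82, the protease BAR1 at -2.03 and the a-factor exporter STE6 at -0.90. MFA1, MFA2 and AGA2 had larger differences, -4.51, -4.59 and -5.94, but q values of 0.104, 0.155 and 0.131. The alpha-specific genes fell as well, in 4 of 5: MF(ALPHA)2 was at -2.49, SAG1 at -2.24, MF(ALPHA)1 at -1.47 and the a-factor receptor STE3 at -1.24.

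Genes induced by pheromone fell in 11 of 27 cases and rose in 2. KAR4, a regulator of nuclear fusion genes, was at -3.99, AGA1, the anchor of the a-agglutinin, at -3.77, SST2, which turns the G protein off, at -2.98, PRM1 of membrane fusion at -2.93 and FUS1 of cell fusion at -2.90. The rises were PRM10 (0.89) and SCW10 (0.85), a wall glucanase. Most of the 18 cascade genes did not pass. Those that fell were GPA1, the G protein alpha subunit, at -1.27, STE12 at -1.17, the kinase FUS3 at -1.12 and the Ste12 inhibitor DIG2 at -0.90. STE11, the kinase at the head of the cascade, rose by 0.65, and STE4 and STE18, the other G protein subunits, were at -0.16 and -0.13 without passing.

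Promoters of STE2 and PRM1 are printed with the Ste12 element TGAAACA in capitals (TGTTTCA on the other strand), in the same window and from the same RefSeq R64 genome as above. STE2 is on the plus strand at chrVI:82180-82479 and holds it 2 times. PRM1 is on the plus strand at chrXIV:110517-110816 and holds it 3 times, closely spaced.
STE2: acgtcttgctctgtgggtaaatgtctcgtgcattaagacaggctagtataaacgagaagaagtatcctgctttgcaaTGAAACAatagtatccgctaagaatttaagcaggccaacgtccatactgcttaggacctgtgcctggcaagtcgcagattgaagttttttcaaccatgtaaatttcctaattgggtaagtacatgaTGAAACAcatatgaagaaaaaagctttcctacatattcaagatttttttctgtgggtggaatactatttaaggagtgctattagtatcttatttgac
PRM1: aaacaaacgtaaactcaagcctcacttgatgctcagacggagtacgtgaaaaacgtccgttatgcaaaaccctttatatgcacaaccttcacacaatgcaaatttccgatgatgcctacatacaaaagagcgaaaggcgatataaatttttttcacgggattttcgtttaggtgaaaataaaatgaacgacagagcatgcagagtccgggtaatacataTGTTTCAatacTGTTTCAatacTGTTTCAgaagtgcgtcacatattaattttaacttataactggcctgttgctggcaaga

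The element was found in 7.26% of all tested promoters, 6.85% of those of genes that rose and 8.2% of those of genes that fell. It was found in 6 of the 7 a-specific genes and in 15 of the 27 pheromone-induced genes. ASG7, which fell, was the a-specific gene without it. Of the alpha-specific genes that fell, MF(ALPHA)2 held it 2 times, and SAG1, MF(ALPHA)1 and STE3 did not hold it. Of the 15 pheromone-induced genes with it, 9 fell and 1 rose, with a median of -1.90. Of the 12 pheromone-induced genes without it, 2 fell and 1 rose, with a median of -0.21.

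**Figure D2:**
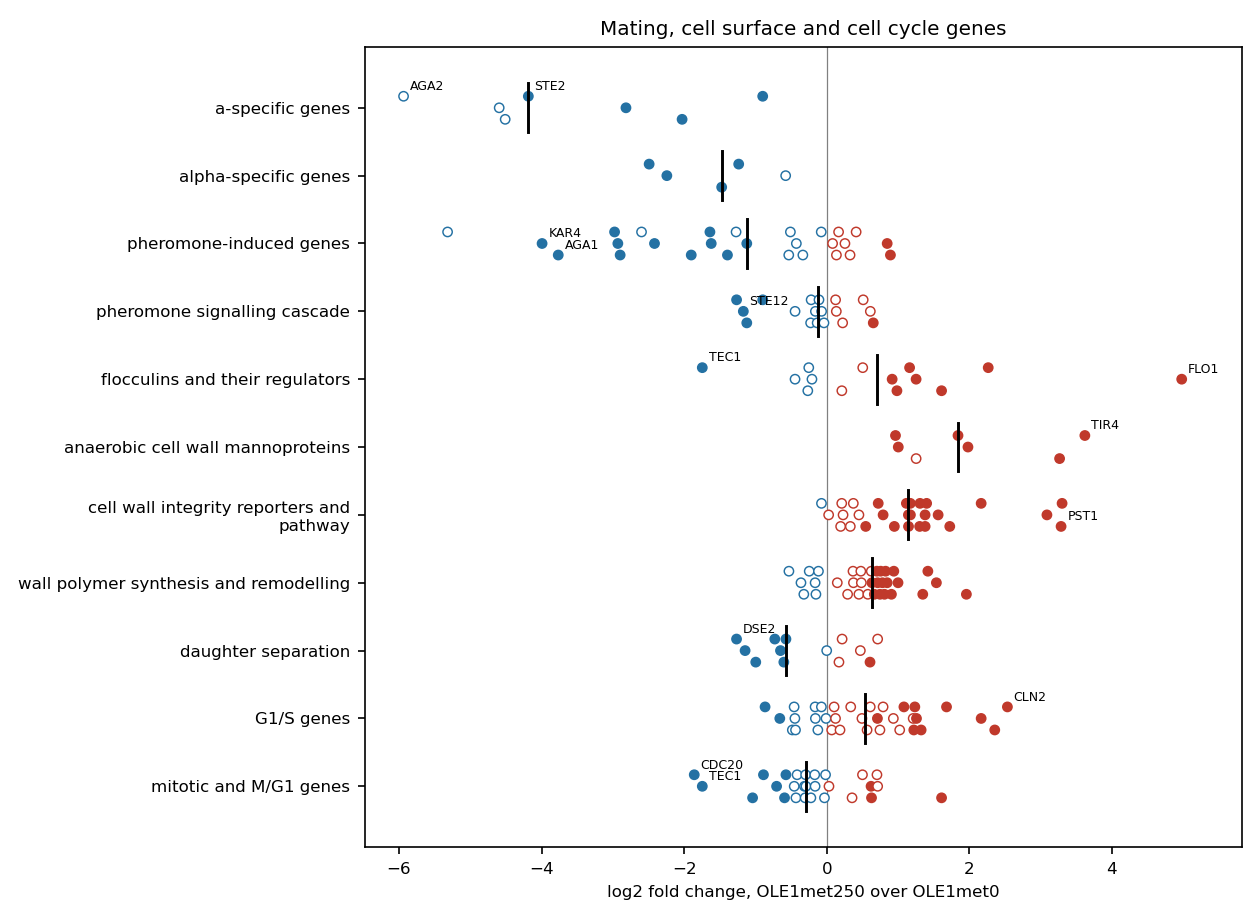
Log2 fold changes of OLE1met250 over OLE1met0 for mating, cell surface and cell cycle genes, 1 circle per tested gene, filled at a q under 0.05; black bars are list medians. The mating lists extend to the left, with STE2 at -4.19 and KAR4 at -3.99, and the wall integrity and mannoprotein lists to the right.

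At the cell surface, the wall integrity, wall polymer and anaerobic mannoprotein lists had rises and no fall, and the genes of daughter separation fell more often than they rose. Of 28 genes of the cell wall integrity pathway and its reporters, 20 rose. The reporters, wall proteins whose genes the kinase Slt2 and its target Rlm1 turn on, had larger values than the kinases: NCW2 was at 3.30, PST1 at 3.29, PIR3 at 3.09 and the chitin transglycosylase CRH1 at 2.17. RLM1 rose by 1.14, BCK1 by 1.31 and PKC1 by 0.55, while SLT2 (0.45, q = 0.0951) and the sensors SLG1 and MID2 (0.21 and 0.03) were not called. Among 33 genes that build or remodel wall polymers, 17 rose, with both glucan synthase genes, FKS1 at 0.81 and GSC2 at 1.17, the chitin synthase CHS1 at 1.35 and GFA1, the entry enzyme for chitin precursors, at 0.94. Of 7 tested anaerobic mannoproteins, small wall proteins otherwise made without oxygen, 6 rose, TIR4 by 3.62, DAN1 by 3.27, DAN4 by 1.98, TIR3 by 1.84, TIR2 by 1.00 and TIR1 by 0.96. The genes that part daughter from mother cells fell in 7 of 13 cases and rose in 1. DSE2 was at -1.27, DSE1 at -1.15 and the glucanase SCW11 at -0.996, although the chitinase CTS1 of the same set was at 0.17 (q = 0.689).

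The flocculin FLO1, a lectin that sticks cells together, was 31.5-fold higher, and its close relative FLO9 rose by 0.92. The regulators around them did not move as a block. FLO8 was at -0.21 (q = 0.618) and MSS11 at 0.50 (q = 0.181). MGA1 rose by 2.26, SOK2 by 1.16 and the repressor SFL1 by 1.25. These are transcript levels, and whether the strain makes a working Flo8 protein is not in the labels. TEC1, which works with Ste12 on filamentation genes, fell, with a value of -1.75. FLO1 and FLO9 have long near-identical repeats, so the way reads were divided between them affects both values.

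Amino acid synthesis fell across nearly every branch, while genes for the first steps of arginine and proline breakdown rose. All 12 genes of the branched-chain pathway fell (median -1.54), and so did all 8 of the lysine pathway (median -1.34). The lowest values were those of OAC1, a mitochondrial carrier of the leucine pathway, at -3.11, and LEU1, the isopropylmalate isomerase, at -2.88. Histidine genes fell in 6 of 7 cases, with HIS7 at -2.48 and HIS4 at -2.45. Aromatic amino acid genes fell in 13 of 16, with TRP4 at -2.80 and ARO9, which acts in aromatic amino acid breakdown, at -2.77. In the arginine and proline list 12 of 17 fell, ARG4 by the most, with a value of -2.73, followed by ARG7 at -2.50. PUT1, the proline oxidase, rose by 3.16 and CAR1, the arginase, by 0.92. In the serine, glycine and threonine list 12 of 17 fell and 0 rose, with CHA1, which breaks serine and threonine down, at -2.77. The aminoacyl-tRNA synthetases fell in 12 of 19 cases, KRS1 for lysine the lowest at -1.78, and FRS2, a subunit of the phenylalanine enzyme, rose by 0.85 while its partner subunit FRS1 was at -0.38 (q = 0.192).

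GCN4, the activator of amino acid synthesis, is controlled mainly at translation, and its transcript was at 0.27 (q = 0.466). Pathway activators did fall, LEU3 with a value of -0.79, LYS14 with -1.46 and BAS1 with -1.46. HIS4 is printed as the example of a promoter with the Gcn4 element TGACTCA, in capitals, in the same window of RefSeq R64 on the minus strand at chrIII:68434-68733 (a match on the other strand would read TGAGTCA).
HIS4: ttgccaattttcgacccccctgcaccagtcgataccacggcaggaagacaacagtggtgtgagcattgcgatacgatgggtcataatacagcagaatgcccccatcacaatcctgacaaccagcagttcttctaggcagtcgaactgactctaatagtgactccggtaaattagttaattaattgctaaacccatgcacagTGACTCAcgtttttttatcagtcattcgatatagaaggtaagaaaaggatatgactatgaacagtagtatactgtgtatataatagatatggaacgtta

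This element was in 3.04% of tested promoters, 1.51% of those of genes that rose and 9.82% of those of genes that fell. It was in 10 of 17 promoters of the arginine and proline list, and 9 of those 10 genes fell, against 3 of the 7 without it. The list's 2 rises, the breakdown genes PUT1 and CAR1, are among the 7 without it. The contrast thus also sets synthesis genes against breakdown genes. In the branched-chain list 6 promoters held it and 6 did not, and all 12 genes fell.

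Nitrogen scavenging ran opposite to synthesis. Of 18 nitrogen catabolite genes, which cells use when good nitrogen sources are short, 10 rose and 2 fell. UGA4, the GABA permease, was at 2.93, the allantoinase DAL1 at 2.00, the urea amidolyase DUR12 at 1.91 and the ammonium transporters MEP2, MEP3 and MEP1 at 1.53, 1.34 and 1.05. The activators GLN3 and UGA3 fell, with values of -1.54 and -2.11. Amino acid permeases and their regulators were divided, with 4 rises and 5 falls of 17 and a median of -0.34. The general amino acid permease GAP1 and the proline permease PUT4 rose by 1.72 and 1.77, and the branched-chain permease BAP2 fell, with a value of -1.08. In glutamate synthesis GDH3 rose by 3.48 and GLT1, the glutamate synthase, fell, with a value of -1.61, while GDH1, the main dehydrogenase, was at -0.02 (q = 0.957).

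**Figure D3:**
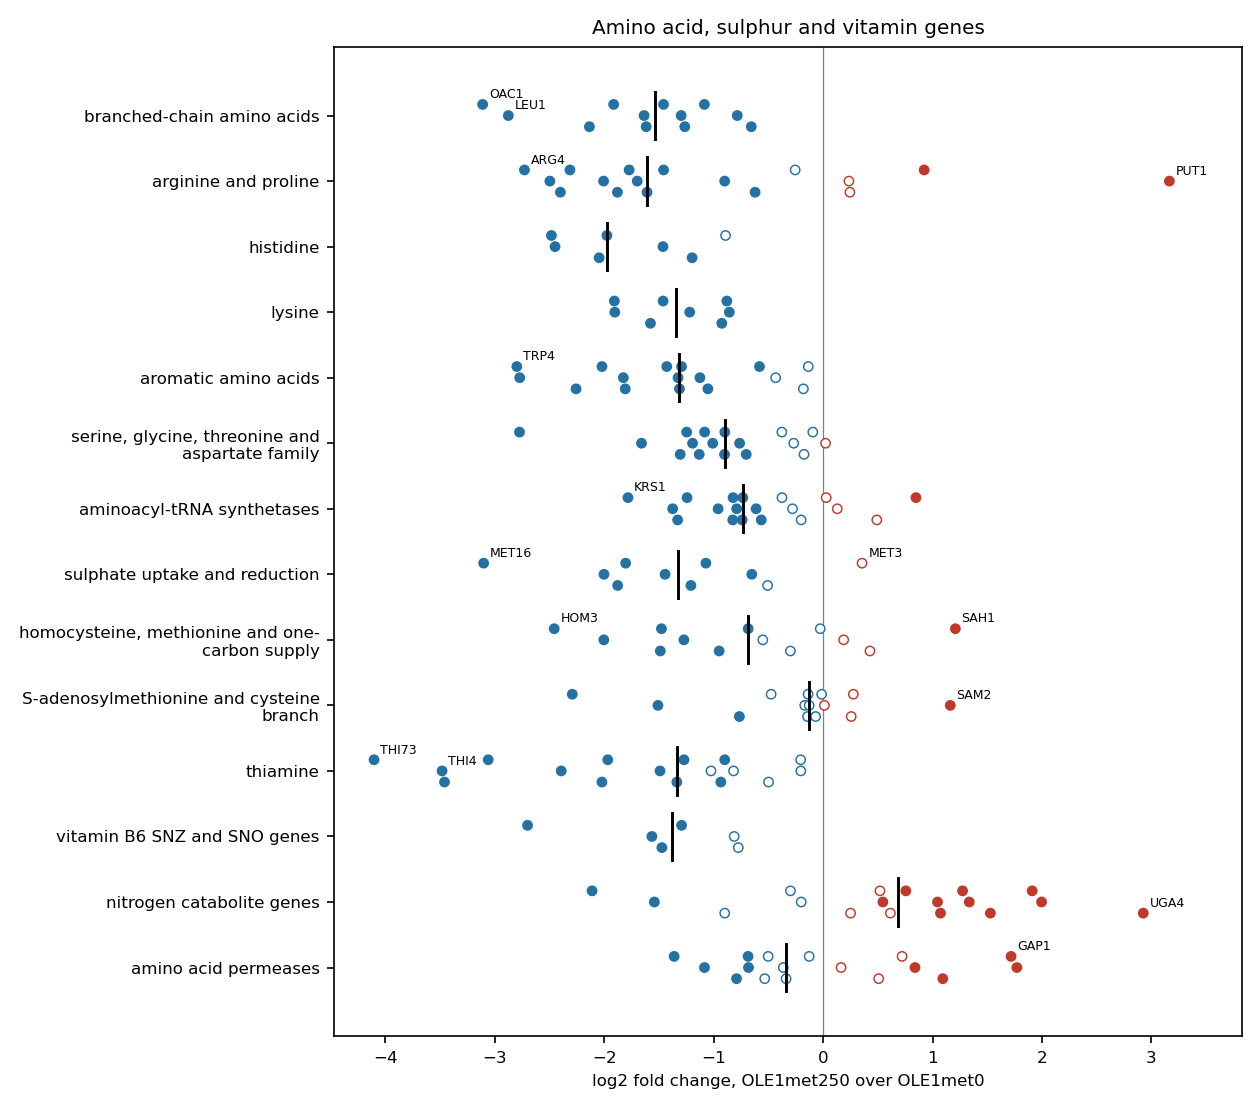
Log2 fold changes of OLE1met250 over OLE1met0 for amino acid, sulphur, vitamin and nitrogen genes, 1 circle per tested gene, filled at a q under 0.05; black bars are list medians. All circles of the branched-chain and lysine lists are filled and left of 0, and MET3 is an open circle at 0.36.

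Most sulphate genes fell, but the gene whose promoter drives OLE1 did not pass. Of 10 genes for sulphate uptake and reduction, 8 fell and 0 rose, with a median of -1.33. MET16, the PAPS reductase, was 8.59-fold lower, the sulphate permeases SUL1 and SUL2 were at -2.00 and -1.07, and MET5 and MET10, the sulphite reductase subunits, at -1.88 and -1.21. MET14, which acts between Met3 and Met16, fell, with a value of -0.65. MET8 (-0.51, q = 0.273) and MET3 were the others. HOM3 and HOM2, which start the route to homoserine, fell, with values of -2.46 and -2.00, and MET17, which joins sulphide to it, with -1.48. On the side of S-adenosylmethionine use, SAM2, a synthetase of it, rose by 1.16 and SAH1, which clears the product of methylation, by 1.21, while SAM1 was at -0.14 (q = 0.685). The Met4 cofactors MET31 and MET32 fell, with values of -1.22 and -1.63, and MET4 was at -0.19 (q = 0.526).

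MET16 is printed for the E-box CACGTG, the site of Cbf1, which recruits Met4. The letters read the same on both strands, are in capitals, and lie in the same window of RefSeq R64 on the minus strand at chrXVI:877733-878032.
MET16: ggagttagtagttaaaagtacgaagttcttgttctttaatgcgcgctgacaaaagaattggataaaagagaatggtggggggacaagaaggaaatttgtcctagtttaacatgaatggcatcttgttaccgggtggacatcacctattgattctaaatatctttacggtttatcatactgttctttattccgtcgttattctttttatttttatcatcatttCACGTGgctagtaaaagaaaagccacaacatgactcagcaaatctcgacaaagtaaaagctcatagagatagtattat

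The E-box was in 4.62% of tested promoters, 4.23% of those of genes that rose and 6.58% of those of genes that fell. It was in 9 of the 10 sulphate genes, of which 7 fell. SUL1, the gene without it, fell too, and MET3 and MET8, which hold it, did not pass. The printed MET16 window also holds the Gcn4 element TGACTCA 1 time, left in lower case. The windows of SUL1 and MET5 hold that element as well. It was also in 12 of 21 promoters of the phosphate regulon, where Pho4 is known to bind the same letters, and of these 12 genes 1 rose and 1 fell.

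Thiamine genes were among the lowest of all. Of 17 tested, 12 fell and 0 rose, with a median of -1.34. THI73, a putative transporter, was at -4.10, the thiazole synthase THI4 at -3.48, the activator THI2 at -3.46, PET18 at -3.06 and the transporter THI7 at -2.39. THI11, THI12 and THI13, near-identical copies, were between -1.03 and -0.20 and not called. Of 6 vitamin B6 genes 4 fell, with BUD16, the pyridoxal kinase, at -2.70. In NAD synthesis BNA2, at the head of the route from tryptophan, rose by 2.04 and BNA1, further down it, fell, with a value of -1.87.

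Most genes of glycolysis below the hexokinases rose. Of 20 genes 12 rose and 1, the minor phosphoglycerate mutase gene GPM3 at -0.96, fell, for a median of 2.18. PGI1 was at 2.10, FBA1 at 2.47, TPI1 at 2.26, PGK1 at 2.42, GPM1 at 2.99 and CDC19, the pyruvate kinase, at 2.78. HXK1, HXK2 and GLK1, which phosphorylate glucose on entry, were at -0.32, -0.34 and 0.14 and were not called. The paralogs TDH1, TDH2 and TDH3, and ENO1 and ENO2, share long stretches, so their separate values depend on how reads were divided. Of the glucose-repressed list 14 of 19 rose and 1 fell. The rises included enzymes of the reverse route, PCK1 at 3.97 and FBP1 at 3.04. Of the activators of glucose-repressed genes, ADR1 was at 1.97 and CAT8 at 0.74. ADY2, the acetate permease, and SFC1, the mitochondrial carrier of succinate and fumarate, were among the 20 largest rises of all, at 4.14 and 3.89. Hexose transporters, their sensors and regulators fell in 6 of 15 cases and rose in 3, with HXT4 and HXT7 among the falls, at -2.98 and -1.99, and HXT5 and HXT2 among the rises, at 1.56 and 0.66. At the branch to acetyl-CoA, ALD6 rose by 2.97, ACS1 by 1.99 and ACS2 by 1.35, and ALD5, ADH5 and ADH2 fell, with values of -2.15, -2.56 and -1.45. The tricarboxylic acid cycle had 2 rises and 4 falls among 20 genes, a called share of 30%, near the 31.2% of all tested genes.

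In the secretory pathway 10 of 20 genes for folding in the endoplasmic reticulum rose and 0 fell, led by ULI1 at 2.11, PDI1, the disulphide isomerase, at 1.73 and KAR2, the Hsp70 of this compartment, at 1.66. HAC1, which turns these genes on after its RNA is spliced, was at -0.69 (q = 0.0511), and its nuclease IRE1 at 0.40 (q = 0.177). Genes for proteins of COPII and COPI vesicles rose in 9 of 28 cases and fell in 0, with SEC16 at 1.21 and SEC24 at 1.06. Genes of translocation and glycosylation had 4 rises and 5 falls of 35, with a median of 0.01. Their called share, 25.7%, was below the 31.2% of all tested genes. Cytosolic and mitochondrial heat shock genes rose in 11 of 30 cases and fell in 0, with SSA3 at 3.55 and HSP60 at 1.56, while HSP104 (0.92, q = 0.0708) and HSP82 (0.71, q = 0.202) did not pass.

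Iron genes rose in 16 of 32 cases and fell in 4. The siderophore transporter SIT1 was at 2.60, the mRNA-binding protein TIS11 at 2.38 and the wall mannoproteins FIT2 and FIT3 at 2.18 and 2.07. GRX4, the glutaredoxin that restrains Aft1, fell, with a value of -2.18, as did the vacuolar iron store CCC1, with -1.30. The high-affinity uptake pair FET3 (0.44, q = 0.253) and FTR1 (0.19, q = 0.627) did not pass. The letters TGCACCC, the core bound by Aft1, searched on both strands, were in 16 of the 32 promoters against 1.49% of all tested promoters. Of those 16 genes 9 rose and 0 fell, and of the other 16, 7 rose and 4 fell. The copper importer CTR1 rose by 2.44.

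Of the ribosome genes most were not called, and those called were mainly lower. Of 137 ribosomal protein genes 39 fell and 3 rose (median -0.40), and of 100 ribosome biogenesis genes 36 fell and 0 rose (median -0.48). Translation factors had 7 rises and 1 fall among 37 genes (median 0.21), a called share of 21.6% against 31.2% of all tested genes. Cell cycle genes were called in both directions. In the G1/S list 10 of 34 rose and 2 fell, with the G1 cyclins CLN2 at 2.53, PCL1 at 1.68 and CLN3 at 1.32. In the mitotic and M/G1 list 7 of 27 fell and 3 rose, with CDC20, the activator of the anaphase ligase, at -1.86 and the helicase subunits MCM7 and MCM3 at -1.04 and -0.89.

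The other comparisons of the series share no library with this one. They set a plasmid with the SPT23 or MGA2 p90 fragment expressed against the same plasmid shut off with doxycycline (spt23p90, mga2p90), and BY4742 kept 90 min under argon (ArgonST) or grown long-term in a microfermenter (ArgonLT) against BY4742 in air (BY). Called higher and lower were 12.2% and 8.58% of tested genes for mga2p90, 6.86% and 5.49% for spt23p90, 4.86% and 2.41% for ArgonST, and 24.1% and 18.4% for ArgonLT. Across genes the log2 values of OLE1met250 had a Pearson r of 0.21 with mga2p90 (5507 genes), 0.05 with spt23p90 (5532 genes), 0.07 with ArgonST (5391 genes) and 0.10 with ArgonLT (5579 genes). Genes are not independent replicates, and these are descriptions.

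With mga2p90, where MGA2 itself was at 3.73, 283 genes rose in both comparisons, 29.4% of the OLE1met250 rises and 41.7% of the mga2p90 rises among genes tested in both. MGA2 is among them, but the plasmid there expresses its fragment, so its value for mga2p90 reflects the construct. The others with the largest values in both were SPS100 (3.65 here and 4.24 there), IZH2 (3.93 and 3.30), FHN1 (3.67 and 3.24), INO1 (3.14 and 5.61) and IZH4 (7.23 and 3.12). HES1 was at 6.58 for mga2p90 without passing (q = 0.231). Falls were shared by 103 genes, 12% and 21.7% of the lists, among them OAC1 (-3.11 and -1.64) and MET5 (-1.88 and -1.74). Opposite calls were made for 58 genes that rose here and fell there (6.02% of the rises here), such as ADH1 (2.13 and -2.57). Another 90 fell here and rose there (10.5% of the falls here). Among these were THI4 (-3.48 and 3.07), AQY2, an aquaporin (-2.00 and 2.76), and ARG4 (-2.73 and 1.68). Over all genes tested for mga2p90, 12.2% rose and 8.58% fell. With ArgonLT, which called more genes, 407 rises were shared, 41.8% of the OLE1met250 rises and 30.2% of the ArgonLT rises, and 166 falls, 18.9% and 16.1%. Opposite calls were 286 genes that fell here and rose for ArgonLT (32.6% of the falls here). A further 140 rose here and fell for ArgonLT (14.4% of the rises here). Over all genes tested for ArgonLT, 24.1% rose and 18.4% fell, the latter near the 18.9% of shared falls. OLE1 was at 2.18 (q = 0.000304) for mga2p90 against -0.03 here.

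**Figure D4:**
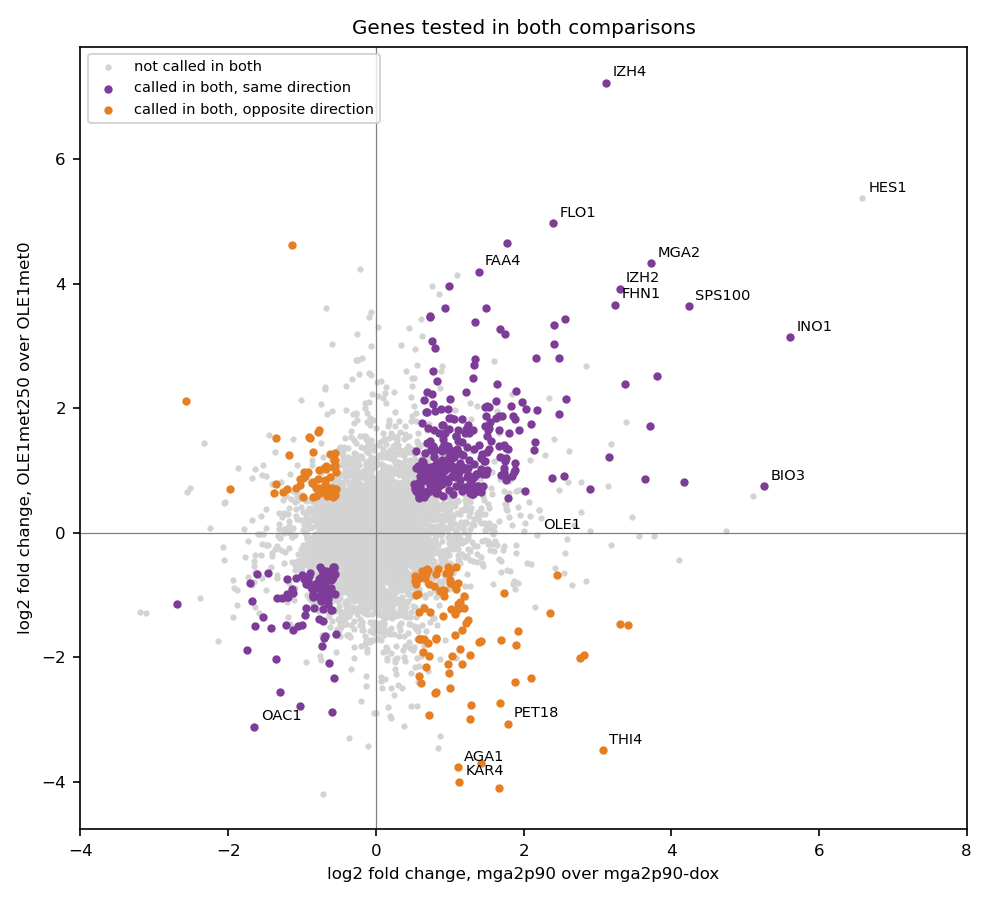
Log2 fold changes of genes tested in both comparisons with finite values, mga2p90 over mga2p90-dox on the horizontal axis and OLE1met250 over OLE1met0 on the vertical axis; purple and orange are genes called in both in the same and in opposite directions. MGA2, IZH2, IZH4 and INO1 lie at upper right and THI4 at lower right, and 1 uncalled gene lies beyond the horizontal limits. MGA2 is the gene whose fragment the mga2p90 plasmid expresses.

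Some values here lay far from those in every other comparison, a difference that has no test because the table gives no error. ACC1, at 3.96 here, was between 0.07 and 0.98 in the others, and FAA4, at 4.20 here, between 0.61 and 1.39. The largest gap among falls called here was that of VEL1, at -2.32 here and between 2.09 and 3.16 in the others. AGA1 (-3.77 here) was at 2.73 for spt23p90 and 1.11 for mga2p90, KAR4 (-3.99 here) at 1.79 and 1.12, and PRM1 (-2.93 here) at 2.08 and 0.72, each called higher in both. Of the pheromone-induced list 12 of 27 rose for spt23p90 and 0 fell, against 2 and 11 here. The arginine and proline list had 12 rises and 2 falls of 17 for ArgonLT, and the sulphate list 10 rises of 10. Glycolysis had 5 rises and 11 falls of 20 for ArgonLT against 12 and 1 here, and the squalene to ergosterol steps 15 rises of 16 there against 1 rise and 4 falls here.

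**Figure D5:**
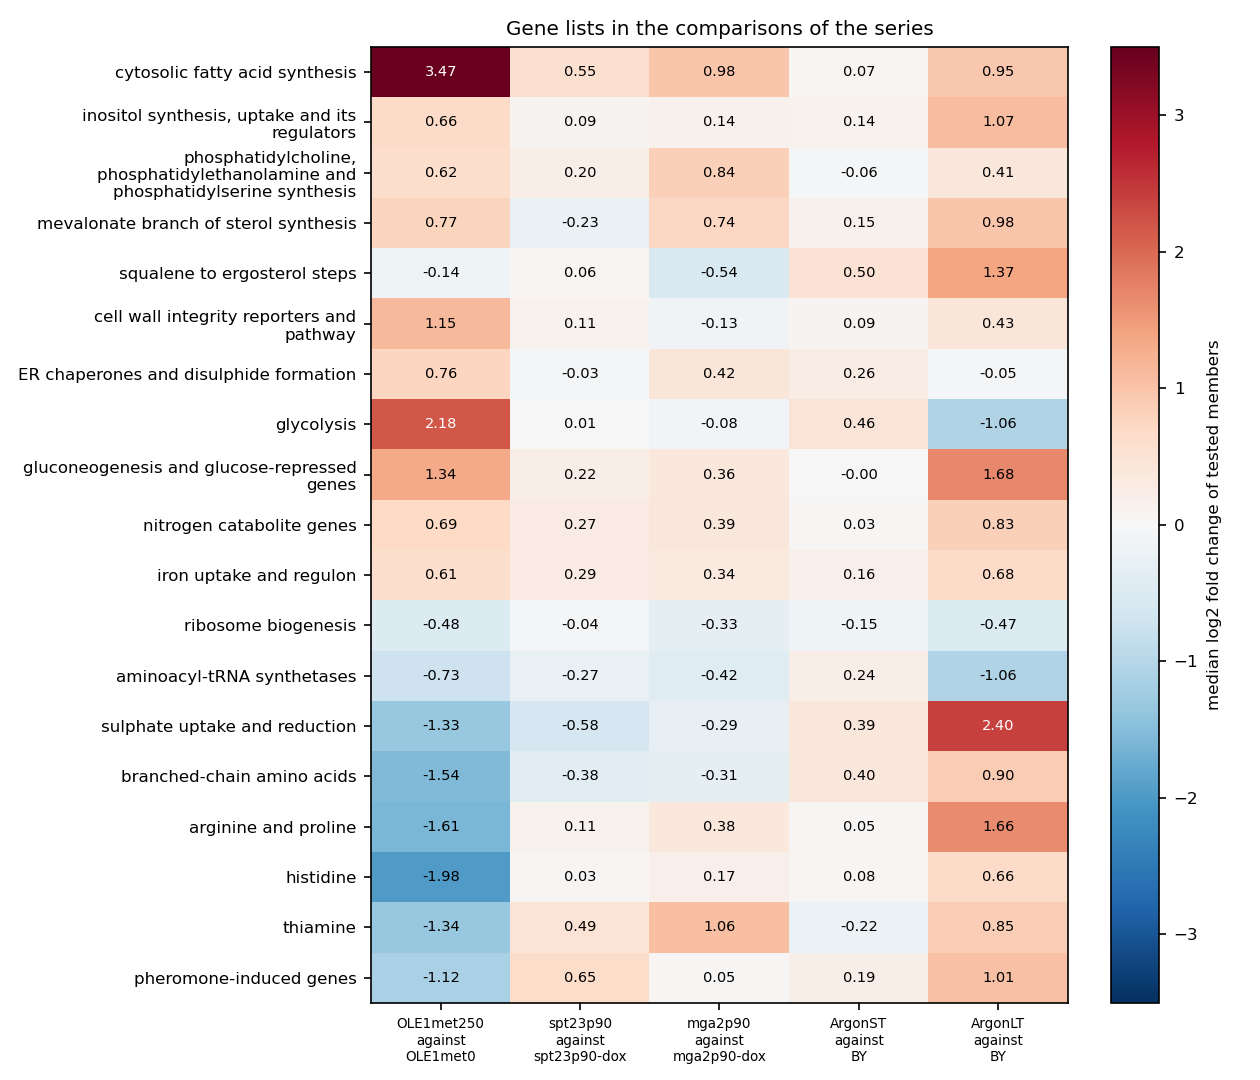
Median log2 fold change of the tested members of 19 gene lists (rows) in the comparisons of the series (columns), red above 0 and blue below. In OLE1met250 the lists run from 3.47 for cytosolic fatty acid synthesis to -1.98 for histidine, and the branched-chain, arginine and proline, histidine, sulphate and pheromone-induced lists are below 0 here and above 0 for ArgonLT.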

How the data were processed

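RNA was sequenced from 3 OLE1met250 and 3 OLE1met0 libraries, grouped by sample title. Trimmomatic 0.33, TopHat2 2.0.14 and Cuffdiff 2.2.1 were used with build R64, per the submitters' processing notes. The settings, annotation and use of strand are not given in those notes or the labels. The authors' deposited table gives 1 log2 fold change and 1 q-value, the adjusted p-value, per gene and comparison, per the file headers, with no column per library (0 such columns were left aside). Unstranded counting would not tell overlapping genes apart, and 189 called genes share their locus entry with another listed gene. Values of 10 or -10 were read as ratios with no finite log2 and an exact 0 as no value. A q under 1 marked a gene as tested. The lowest q, 0.000304, was shared by 737 genes, so the strongest cannot be ranked by it.

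No test was run here. Calls, list counts, medians and motif matches were computed with Python 3.11.15, pandas 2.3.3 and numpy 2.4.6, and tested on simulated data. The text names OLE1, SPT23 and MGA2, genes among the 20 largest rises and 20 largest falls, up to 6 called members of each of 90 lists with the largest change, uncalled members where a whole list is described, and the 12 genes per direction farthest from their values in the other comparisons. Some further list members were named after their values were seen. The genes, lists and motifs were chosen with earlier results of these data known. By systematic name 6022 genes matched RefSeq R64. Emptied lines of the table were not analysed here, and some genes are not reported here. Alternatives were a q under 0.01, a minimum change, other sets of genes and the subtraction of the median.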

Additional observations from a re-analysis of the deposited data

How the results depend on the processing

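The counts of 1011 rises and 882 falls depended on the rule. At a q under 0.01 there were 687 rises and 584 falls, and with an absolute log2 of at least 1 beside a q under 0.05 there were 519 and 418. Leaving out genes listed at 10 or -10 changed neither count, since 0 of the 3 tested genes listed so were called. Subtracting the median of all tested genes, -0.01, shifts every value alike and by less than 0.1 on the log2 scale, so it says nothing of stability. Counting every listed gene with a value other than 0 moved 8 of 89 list medians by over 0.1 and turned the sign of 1, the MAL and sugar genes near telomeres (from -0.55 to 0.16). The pheromone-induced median went from -1.12 to -0.83 and that of the flocculins and their regulators from 0.71 to 0.21. Over genes called in both comparisons alone, r was 0.37 with mga2p90 (533 genes), 0.21 with spt23p90 (312 genes), 0.12 with ArgonST (153 genes) and 0.11 with ArgonLT (995 genes). No paired analysis was possible because the table holds 1 value per gene and comparison and no value per library; for the same reason no replicate could be left out. The depth behind each value is unknown, so a gene that missed the threshold is not shown to be unchanged, and large values with a high q, such as AGA2, cannot be judged further.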

Other observations

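Position and length were described across the tested genes of the authors' deposited table with a RefSeq position. Within 20 kb of a chromosome end, 28.5% of 130 genes rose and 15.4% fell. Between 100 and 1000 kb from an end, 17.7% of 4268 genes rose and 15.6% fell. COS10, a member of a family that lies near chromosome ends and helps sort membrane proteins to the vacuole, was at 4.66, and 4 of the 8 tested members of its family rose and 1 fell. Chromosome I, the smallest, had 22 rises (27.5%) and 6 falls (7.5%) among 80 genes, FLO1 and FLO9 included, while the medians of all chromosomes lay between -0.13 and 0.07. Among genes of 2091 to 14733 bases 23.4% rose and 10.6% fell, and among genes of 78 to 633 bases 12.1% rose and 11.6% fell. Whether the size of a gene had a part in its call was not tested.

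Among carbon lists not described above, glycogen and trehalose had 5 rises and 1 fall of 21 genes, with 15 not called. That called share, 28.6%, was near the 31.2% of all tested genes. Of 17 genes of beta-oxidation 7 rose and 2 fell, with POT1, the thiolase, at 2.64, POX1, the acyl-CoA oxidase, at 1.46 and PIP2, an oleate-activated regulator, at -0.73. Of 25 genes tied to stationary phase and glucose exhaustion 15 rose and 2 fell, with RGI2 at 4.37, SPG1 at 4.13 and the small heat shock gene HSP26 at 2.27. The stress element CCCCT, searched on both strands, was in 24.1% of all tested promoters, in 32.3% of those of genes that rose and in 17.7% of those of genes that fell. Within the stationary phase list 8 of 16 genes with it rose and 2 fell, against 7 and 0 of 9 without it.

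Of 29 peroxidase, superoxide dismutase and glutathione genes 10 rose and 1 fell, with the thioredoxin TRX2 at 1.95 and the peroxiredoxin TSA1 at 1.36. The catalase CTT1 (-0.64, q = 0.0700) and the activator YAP1 (-0.29, q = 0.321) did not pass. Of 30 autophagy and vacuolar genes 9 rose and 0 fell, with the vacuolar protease PRB1 at 1.55 and ATG32, the receptor for mitochondria, at 1.30. Of 26 multidrug transport genes 8 rose and 5 fell, PDR5 at 2.09 and ATR1 at -2.34 marking the ends. Of 33 meiosis and sporulation genes 15 were tested, with 6 rises, 1 fall and a median of 0.01. SPS100 rose by 3.65, DMC1 by 2.81 and GAS2 by 2.34. NDT80, the activator of the middle sporulation genes, was at -0.22 (q = 0.538).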
